A study of Arabidopsis thaliana with 3 samples.

Results

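The 45S ribosomal RNA genes studied here were AT2G01010 and AT2G01020 on chromosome 2 and AT3G41768 and AT3G41979 on chromosome 3 of Arabidopsis thaliana. They were chosen by locus name, and they are the 4 rRNA genes among the 37899 nuclear genes of the gene table used. Whole leaves of plants aged 2 to 3 weeks, with no genotype, treatment or further agent given in the labels, were digested with micrococcal nuclease, which cuts DNA between nucleosomes. Nucleosomes holding the histone H2A.W.6 or H2A.W.7 were immunoprecipitated, in 1 library each, and both were set against the same control library, of which there was 1. The values are deposited lists of enriched regions on TAIR10, with 18107 regions of H2A.W.6 and 25393 regions of H2A.W.7, divided by the submitters between chromosome arms and a centromeric part. The lists give positions with no height or read count, so the depth is unknown, no value has a replicate error, and no p-value is given.

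A 45S unit is transcribed by RNA polymerase I as a single precursor that is cut into the 18S, 5.8S and 25S RNAs of the ribosome. In Arabidopsis the units stand in long tandem arrays, the nucleolus organisers, at the left ends of chromosomes 2 and 4. Some copies are expressed, while others are kept silent in heterochromatin. H2A.W histones are known to mark plant heterochromatin. AT2G01010 and AT3G41768 are known as 18S genes, and AT2G01020 and AT3G41979 as 5.8S genes. The chromosome 2 pair lies at the assembled edge of an organiser and fell in the arm lists. The chromosome 3 pair lies outside the organisers and fell in the centromeric lists. Reads of 50 bp from the arrays and from these assembled copies cannot be told apart where the sequence is the same, and no source used here says how such reads were placed. The 4 genes are therefore neither independent of each other nor replicates, and cover over them describes the assembled sequence together with any copies whose reads were placed there.

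The 2 sites had the same layout in the gene table. Both 18S genes were 1808 bp long, both 5.8S genes were 164 bp long, and 268 bp separated them at each site. A miRNA gene of 1 family, MIR5642b on chromosome 2 and MIR5642a on chromosome 3, ended 529 bp before the 18S gene at both sites. The gene table gave no rRNA gene for the 25S part, which follows the 5.8S part in the unit.

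All 4 rRNA genes lay wholly inside regions of both variants. For H2A.W.6 the covered share of the body was 100% for AT2G01010, AT2G01020, AT3G41768 and AT3G41979, and for H2A.W.7 it was 100% for the same 4 genes. Counting a gene as covered at 50% or more of its body, the background in the arms was 2.74% of 31618 genes with H2A.W.6 and 3.92% with H2A.W.7. Of the 6281 centromeric genes, H2A.W.6 covered 64% and H2A.W.7 covered 48.4%. Cover over the whole body was found for 0.598% of arm genes with H2A.W.6 and 1.38% with H2A.W.7, and for 22.8% and 12% of centromeric genes. The chromosome 2 pair thus had a state that few arm genes had, whereas cover of a gene such as those of the chromosome 3 pair was common in their part, more so with H2A.W.6.

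Short genes are covered whole more easily, so genes of like length were counted, a choice made after seeing the data. Among arm genes of 1500 to 2100 bp, the length of the 18S genes, 6 of 5559 were covered whole by H2A.W.6 and 10 by H2A.W.7 (0.108% and 0.18%). Among the 798 centromeric genes of that length, 171 were covered whole by H2A.W.6 (21.4%) and 32 by H2A.W.7 (4.01%). Among arm genes of 130 to 200 bp, the length of the 5.8S genes, 6 of 441 were covered whole by H2A.W.6 and 22 by H2A.W.7 (1.36% and 4.99%). In the centromeric part 20 of 63 such short genes were covered whole by H2A.W.6 and 21 by H2A.W.7 (31.7% and 33.3%). Whole cover by H2A.W.7 was therefore the rarer state for a gene of 18S length in the centromeric part, and AT3G41768 had it.

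At each site 1 unbroken region per variant held both rRNA genes, and the edges of the 2 variants lay close together. On chromosome 2 the H2A.W.6 region ran from 1001 to 10365 (9365 bp) and the H2A.W.7 region from 991 to 10425 (9435 bp). The H2A.W.7 region thus began 10 bp further left and ended 60 bp further right, and held the H2A.W.6 region whole. On chromosome 3 the H2A.W.6 region ran from 14192861 to 14205200 and the H2A.W.7 region from 14192871 to 14205210. Both were 12340 bp long, and the H2A.W.7 region was set 10 bp to the right. Positions in the lists move in steps of 5 bp, so the closest of these edges differed by a few steps. Both lists were made against the same control library, and the part of that library in the shared edges was not tested.

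**Figure D1:**
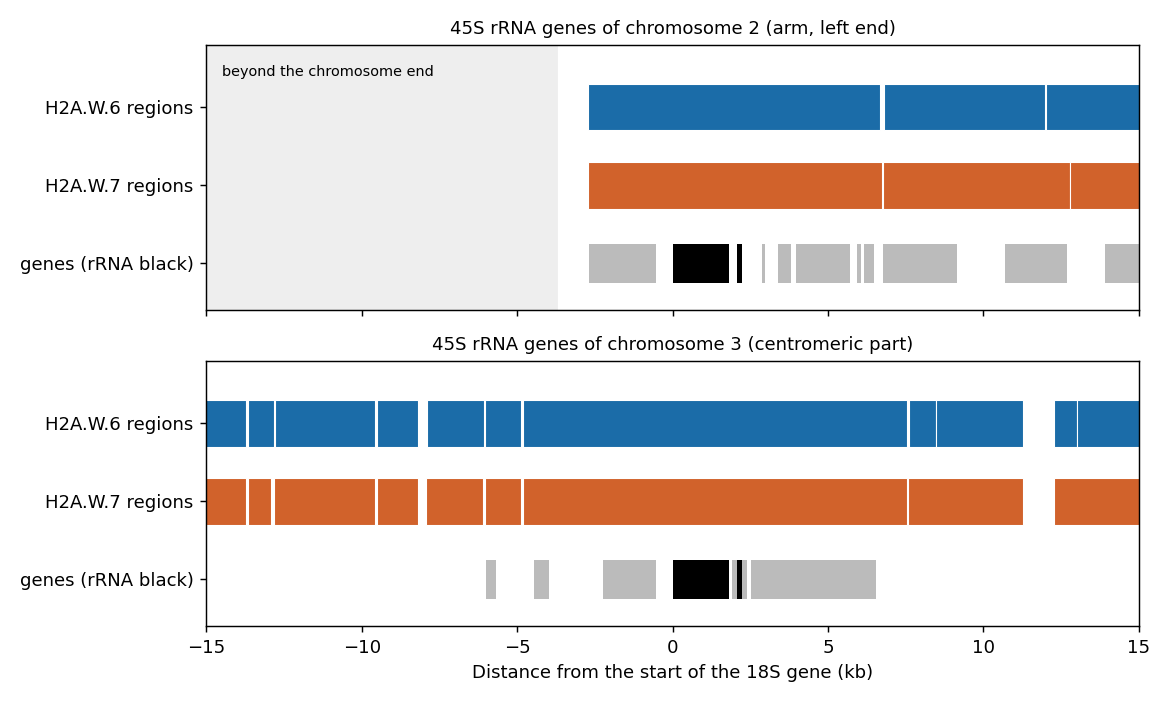
Enriched regions of H2A.W.6 (blue) and H2A.W.7 (orange) and annotated genes (rRNA genes black, others grey) round the 45S rRNA genes of chromosome 2 (top) and chromosome 3 (bottom), by distance in kb from the start of the 18S gene. White lines are breaks between regions, drawn slightly wider than scale, and in both panels 1 unbroken region per variant spans the rRNA genes.

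Measured from the genes, the regions reached unequally far on the 2 chromosomes. On chromosome 2 they began 2.71 kb before the 18S gene with H2A.W.6 and 2.72 kb before it with H2A.W.7, where only about 1 kb of chromosome remained. On chromosome 3 they began 4.82 kb before it with H2A.W.6 and 4.81 kb with H2A.W.7. Past the 5.8S gene, the chromosome 2 regions went on for 4.42 kb with H2A.W.6 and 4.48 kb with H2A.W.7, and the chromosome 3 regions for 5.28 and 5.29 kb. The chromosome 3 region was thus longer by 2975 bp for H2A.W.6 and by 2905 bp for H2A.W.7, with most of the extra length on the 18S side.

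The breaks that bounded these regions were narrow. To the right of the chromosome 2 region, 140 bp were uncovered in the H2A.W.6 list and 55 bp in the H2A.W.7 list before the next region began. To its left no region preceded it, and 1000 bp and 990 bp at the chromosome end were uncovered. The sequence of this end was not examined, so whether reads could be placed there is not known. On chromosome 3 the breaks were 50 bp on the left and 75 bp on the right for H2A.W.6, and 55 bp and 50 bp for H2A.W.7. All of these inner breaks were shorter than the shortest region of the lists, 200 bp.

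The 5 kb flanks were covered almost throughout, apart from the end of chromosome 2. The left flank of AT2G01010, which ends at the chromosome end before 5 kb are reached, was covered over 73.0% by H2A.W.6 and 73.3% by H2A.W.7, and its right flank over 97.2% and 98.9%. For AT2G01020 the left flank, which takes in the 18S gene, was covered over 95.6% and 95.8%, and the right flank over 97.2% and 98.9%. For AT3G41768 the left flank was covered over 99.0% by H2A.W.6 and 98.9% by H2A.W.7, and the right flank over 100% by both. Both flanks of AT3G41979 were covered over 100% by both variants. The largest gap between the variants in any of these 8 flanks was that of the right flanks on chromosome 2, where H2A.W.7 was the higher.

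Flanks so fully covered were rare in the arms and less so in the centromeric part. The limit of 90% used here was not fixed beforehand and lies below the values of AT2G01020, so the shares are a description. AT2G01020 had 90% or more of both flanks in regions of each variant, as did 0.0538% of arm genes (17 genes) for H2A.W.6 and 0.0506% (16 genes) for H2A.W.7. Of those arm genes, 12 of the 17 and 12 of the 16 lay in the first 50 kb of chromosome 2, AT2G01020 among them. AT2G01010 missed this limit on its left side, where the uncovered bases are those at the chromosome end. AT3G41768 and AT3G41979 met it, as did 16.2% of centromeric genes with H2A.W.6 and 1.24% with H2A.W.7.

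The other annotated genes over or beside the rRNA genes were covered as well. On chromosome 2, 8 further genes lay in part or whole within the flanks, and all 8 were covered by each variant. Of these, 7 lay wholly inside regions of both: the protein-coding genes AT2G01008, AT2G01021 and AT2G01023, the miRNA gene MIR5642b, and the RNA genes AT2G03865, AT2G03875 and AT2G00340. The exception was the pseudogene AT2G01022, which met the first break and was covered over 98.8% by H2A.W.6 and 99.9% by H2A.W.7. On chromosome 3 all 7 neighbours lay wholly inside regions of both variants, namely the protein-coding gene AT3G41762, the miRNA gene MIR5642a, the RNA genes AT3G00660 and AT3G06365, the non-coding RNA gene AT3G41761 and the long non-coding RNA genes AT3G06325 and AT3G06355. AT3G06355 and AT3G06365 lie over or directly after the 5.8S gene. All 7 neighbours on chromosome 3 and the 7 wholly covered ones on chromosome 2 lay in the same region per variant as the rRNA genes. Their cover is therefore not separate from that of the rRNA genes. Whole cover was found for 0.598% of arm genes with H2A.W.6 and 1.38% with H2A.W.7, and for 22.8% and 12% of centromeric genes.

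The regions over the rRNA genes were among the longest of their lists. The chromosome 2 region was the 2nd longest of 3982 arm regions for H2A.W.6 and the 3rd longest of 7750 for H2A.W.7, at 26.0 and 23.9 times the median lengths of 360 and 395 bp. The chromosome 3 region was the 14th longest of 14125 centromeric regions for H2A.W.6 and the 4th longest of 17643 for H2A.W.7, at 21.5 and 28.7 times the medians of 575 and 430 bp. Regions of 5 kb or more, a limit not fixed beforehand, made up 0.301% of the arm list of H2A.W.6 and 0.271% of that of H2A.W.7. In the centromeric lists they made up 2.12% and 0.425%. On chromosome 3 the length was thus the same for both variants, while its rank was higher for H2A.W.7, whose centromeric regions were mostly shorter.

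**Figure D2:**
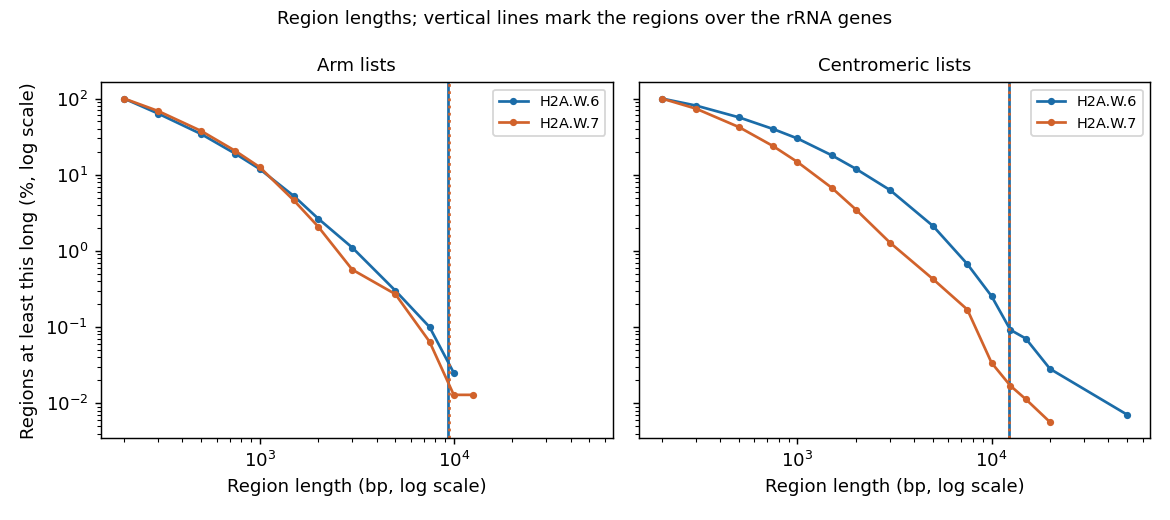
Share of regions at least as long as the length on the x axis (bp), for the arm lists (left) and the centromeric lists (right), both axes on a log scale, with H2A.W.6 in blue and H2A.W.7 in orange. Vertical lines mark the regions over the rRNA genes, of 9365 and 9435 bp in the arms and 12340 bp for both variants in the centromeric part, and all 4 lie past 5 kb, a length that at most 2.12% of the regions of a list reach.

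Around the chromosome 2 site the cover went on to about 50 kb from the chromosome end. When breaks of up to 200 bp were bridged, a width chosen after seeing the data, the block that held the rRNA genes ran from 1001 to 49995 for H2A.W.6, with 8 regions, and from 991 to 50540 for H2A.W.7, with 7 regions. Within it 435 bp of 49.0 kb were uncovered for H2A.W.6 and 325 bp of 49.55 kb for H2A.W.7. The block held 7 pseudogenes to the right of the rRNA genes, a class that includes most transposon-derived genes. Their covered shares ran from 98.8% to 100% with H2A.W.6 (median 99.8%) and from 99.9% to 100% with H2A.W.7 (median 100%). The block was drawn by joining regions, so near-whole cover of any gene within it was fixed by how it was drawn. Among all 762 arm pseudogenes, 57.0% were covered over 50% or more of the body by H2A.W.6 and 58.4% by H2A.W.7. Whole cover was found for 8.01% and 14.6% of them. The cover at the chromosome 2 pair was thus part of a longer covered block and did not stop at the 45S sequence.

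Around the chromosome 3 site the same bridging gave a shorter block. It ran from 14189766 to 14208960 for H2A.W.6 (19.2 kb) and from 14189741 to 14208960 for H2A.W.7 (19.2 kb), with 185 and 170 bp uncovered. On the right both variants stopped at the same position. Bridging breaks of up to 500 bp extended the block on the left alone, to 65.5 kb for H2A.W.6 and 38.3 kb for H2A.W.7, so the H2A.W.6 cover reached further before a wide break. Which site had the longer block depended on the width bridged. At 100 bp, H2A.W.6 gave 9.365 kb on chromosome 2 and 19.2 kb on chromosome 3, and H2A.W.7 gave 27.04 and 19.2 kb. At 1000 bp the chromosome 3 block was the longer for both variants. It held 94.89 kb against 49.0 kb with H2A.W.6, and 57.63 kb against 49.55 kb with H2A.W.7.

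**Figure D3:**
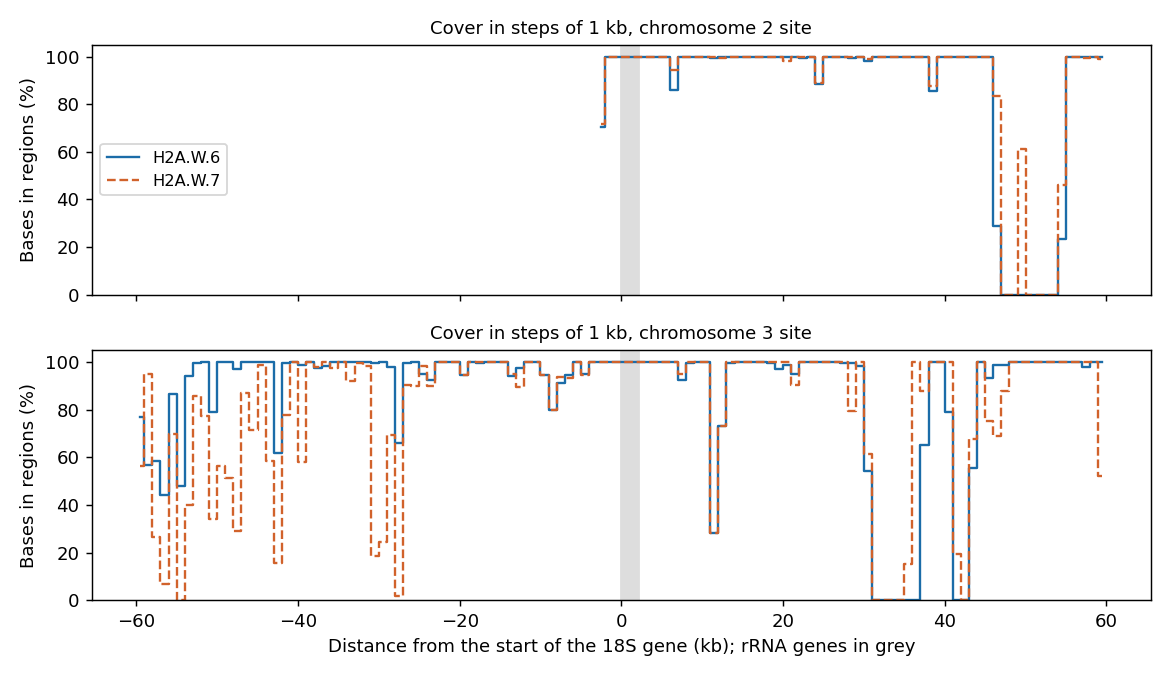
Share of bases in regions of H2A.W.6 (blue, solid) and H2A.W.7 (orange, dashed) in steps of 1 kb, by distance in kb from the start of the 18S gene, at the chromosome 2 site (top, which begins at the chromosome end) and the chromosome 3 site (bottom). Both curves lie at 100% over the rRNA genes (grey), and on chromosome 3 the H2A.W.7 curve falls below that of H2A.W.6 in most steps further left than 40 kb.

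Set beside other steps of the chromosome 3 centromeric part, the surroundings of the rRNA genes lay further above the median for H2A.W.7 than for H2A.W.6. In the 50 kb centred on AT3G41768 and AT3G41979, H2A.W.6 covered 96.5% and H2A.W.7 covered 96.4%. Over the 88 steps of 50 kb of that part that do not overlap this window, H2A.W.6 covered a median of 70.4% (17.8% to 97.5%) and H2A.W.7 a median of 47.95% (23.4% to 96.9%). The rRNA window was exceeded by 1 step for each variant. The window was placed on the genes and the steps on a fixed grid, and the steps are not replicates, and the comparison was chosen after seeing the data, so this ordering is a description.

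Of the left chromosome ends, that of chromosome 2 was covered almost throughout and the other 4 were not. In the first 50 kb, H2A.W.6 covered 97.1% on chromosome 2 and H2A.W.7 covered 97.4%. On chromosome 4, whose left end adjoins the other organiser but carries no rRNA gene in the gene table, the values were 8.07% and 12.8%. H2A.W.6 covered 0% on chromosome 1, 0.98% on chromosome 3 and 2.35% on chromosome 5, and H2A.W.7 covered 2.89%, 4.58% and 4.74%. By this 50 kb share, the end of chromosome 4 was thus nearer to the ends without an organiser than to that of chromosome 2. Its cover was uneven in steps of 5 kb. The first 5 kb were covered over 29.3% by H2A.W.6 and 44.2% by H2A.W.7, against 80% and 80.2% on chromosome 2. The step from 45 to 50 kb on chromosome 4 held 41.4% and 45.1%, and the steps between reached at most 5.4% and 25.5%. Within the left arm of chromosome 2, 1.4 Mb long, the 27 later steps of 50 kb had a median of 4.13% for H2A.W.6 (highest 37.9%) and 10.95% for H2A.W.7 (highest 32.0%). The first 50 kb make up 3.57% of this arm and held 27.8% of its bases covered by H2A.W.6 and 20.8% of those covered by H2A.W.7.

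**Figure D4:**
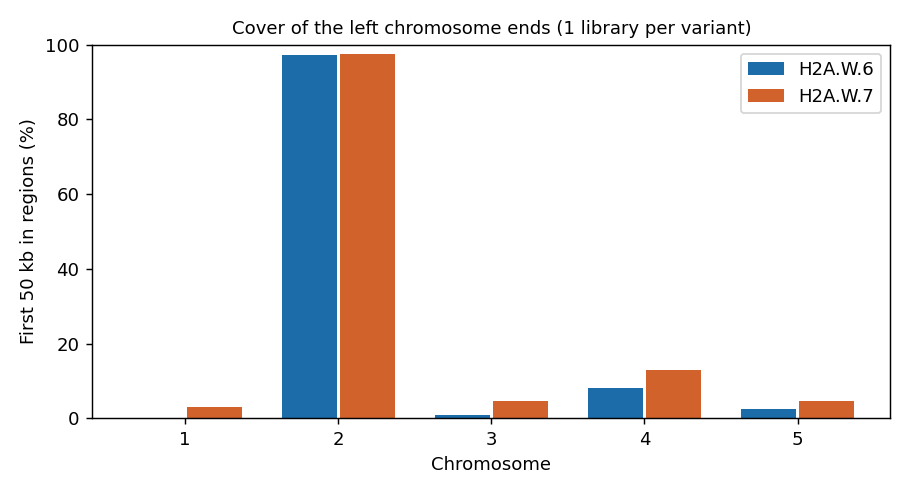
Share of the first 50 kb of each chromosome in regions of H2A.W.6 (blue bars) and H2A.W.7 (orange bars), from 1 library per variant, with the y axis in percent. Chromosome 2, which begins with the 45S rRNA genes, stands at 97.1% and 97.4%, and no other chromosome passes 12.8%.

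Both rRNA genes of each part were covered, and the shares of other classes are given beside them without a test. With 2 of 2 genes, the 95% Wilson interval of the rRNA share ran from 34.2% to 100% in each part. The 2 genes share 1 region and are not independent, so this interval is no measure of error. It is not compared with the intervals of other classes. In the arms, H2A.W.6 covered 62 of 583 tRNA genes (10.6%, 8.38% to 13.4%) and H2A.W.7 covered 54 (9.26%, 7.17% to 11.9%). Of the 271 arm snoRNA genes, many of which guide the modification of rRNA, H2A.W.6 covered 0 and H2A.W.7 covered 1. Of the 76 arm snRNA genes they covered 1 and 4. Over all arm genes the shares were 2.74% with H2A.W.6 and 3.92% with H2A.W.7, and over arm protein-coding genes 1.05% and 1.82%. Low cover of snoRNA genes thus does not set them far from other arm genes. Of the 762 arm pseudogenes, H2A.W.6 covered 57.0% and H2A.W.7 58.4%. In the centromeric part, H2A.W.6 covered 24 of 42 tRNA genes (57.1%) and 2 of 16 snoRNA genes (12.5%), and H2A.W.7 covered 22 and 2. Of the 3155 centromeric pseudogenes, 93.0% were covered with H2A.W.6 and 65.9% with H2A.W.7. Over all centromeric genes the shares were 64% and 48.4%. The intervals of the other classes cover counting error only, and neighbouring genes share regions.

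**Figure D5:**
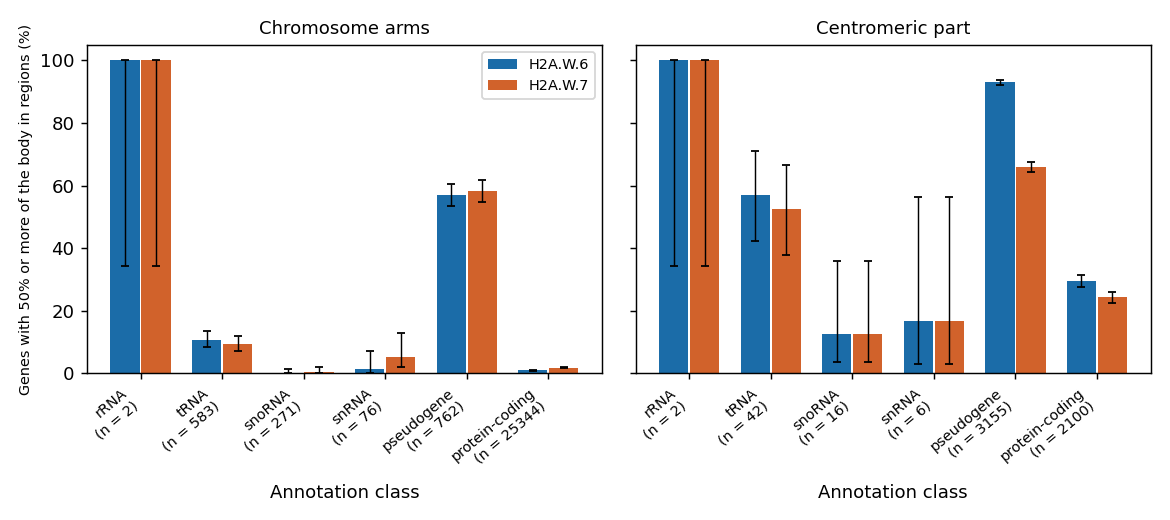
Share of genes with 50% or more of the body in regions, in percent, by annotation class in the arms (left) and the centromeric part (right), for H2A.W.6 (blue) and H2A.W.7 (orange), with 95% Wilson intervals over genes as error bars and the number of genes under each class. All rRNA genes are covered, with 2 genes per part and so wide intervals, and snoRNA genes lie at or under 12.5% in both parts.

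The protein genes known to act on the 45S unit lay outside the regions. The list held 17 genes, for the nucleolins NUC-L1 and NUC-L2, the fibrillarins FIB1 and FIB2, the RNA polymerase I subunits NRPA1 and NRPA2, the histone deacetylase HDA6, the histone methyltransferases ATXR5, ATXR6 and SUVR4, the chromatin assembly factors FAS1 and FAS2, the DNA methyltransferases DRM2 and MET1, the methyl-DNA binding proteins MBD6 and MBD10, and the chromatin remodeller CHR1, also known as DDM1. Of these, 0 had a base of the body in regions of H2A.W.6 or of H2A.W.7. With 5 kb added on each side, 2 of the 17 met an H2A.W.6 region and 7 met an H2A.W.7 region, at no more than 3.07% and 8.72% of the span. All 17 lie in the arms, where 2.51% of protein-coding genes had any base of the body in an H2A.W.6 region and 4.99% in an H2A.W.7 region. With 5 kb added on each side these shares were 16.5% and 40.3%, so the counts of the list are near the background and do not set it apart.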

How the data were processed

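For each immunoprecipitation the authors deposited a list of arm regions and a list of centromeric regions, 4 in all, which hold positions alone. Per the submitters' processing notes the build was TAIR10 and bedtools was used. The aligner, the caller, its threshold, the scaling against the control and the treatment of reads with several matches are matters not given in the sources used here. Per the labels' protocols, 4 g of leaves per immunoprecipitation were digested for 15 min and read as 50 bp pairs. No file of the control was analysed here.

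Arm and centromeric lists of a variant were joined, and covered bases counted in Python 3.11.15 with numpy 2.4.6. Intervals are Wilson intervals from scipy 1.17.1. The interval functions were tested on 20 pairs of simulated lists, with 0 mismatches in 2040 checks against a base-by-base count. Genes came from a RefSeq table of TAIR10.1. Because that name differs from the build of the lists, the table was moved by up to 10000 bp either way. On 5 of 5 chromosomes the share of arm pseudogene bases covered by H2A.W.6 was the highest of those tried at shift 0. The smallest shift tried was 100 bp, so smaller offsets were not checked. Genes of the centromeric part were not in this check. Gene coordinates are not printed, distances are rounded, and left and right follow the chromosome, since the table gives no strand. The border between parts was the multiple of 100 kb between the last arm and the first centromeric region. Named were the 4 members, every gene in their flanks and the genes of the fixed list. The members and lists were chosen with earlier results of these data known.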

Additional observations from a re-analysis of the deposited data

How the results depend on the processing

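For the 34 results 240 alternative values were computed. A share was taken as moved when it left its 95% Wilson interval over steps of 5 bp, and a distance or count when it changed by more than 1.5 times, which held for 53 values and not for 187. Body cover of the 4 rRNA genes was 100% in all 56 alternative values, with stricter or merged lists and with the gene table moved by up to 1000 bp. None of these settings could lower it, so the 56 values lend it no support. The regions are longer than the medians, merging only adds cover, and the region edges lie more than 1000 bp from the genes. For the same reasons the cover of the rRNA span and the count of covered rRNA genes could not move. The 187 unmoved values thus include many fixed in advance, and their number is no measure of support. Flank cover on chromosome 2 depended on the flank taken. With the table moved 1000 bp to the left it was 63.0% (H2A.W.6) and 63.4% (H2A.W.7) on the left and 100% for both on the right, and moved 1000 bp to the right it was 78.7% and 79.0% on the left. Flanks of 1 kb and 2 kb were covered over 100% on each side of both sites, and flanks of 10 kb over 98.55% and 99.45% on the right of chromosome 2, 95.5% and 95.6% on the left of chromosome 3 and 89.6% and 89.9% on its right. Merging across 1000 bp brought the right flank of chromosome 2 and the left flank of chromosome 3 to 100%. With the table moved 1000 bp to the right, chromosome 3 had 100% on the left for both and 98.5% and 99.0% on the right.

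The reach of a region depends on bridging breaks by construction. Merged across 1000 bp, the cover reached 44.05 and 44.6 kb to the right on chromosome 2, and on chromosome 3 it reached 64.3 and 27.0 kb to the left and 28.3 and 28.4 kb to the right. The left reach on chromosome 2 was 1.705 and 1.715 kb with the table moved 1000 bp to the left. The first 50 kb of chromosome 2 went to 98.0% for both after that merging, and the first 20 kb held 94.3% and 94.8% and the first 100 kb 60.5% and 64.2%. On chromosome 4 the stricter list, of regions at or above the median length, gave 6.64% and 10.6%, merging gave 9.18% and 16.2%, the first 100 kb 7.34% and 10.8%, and the first 20 kb 8.68% for H2A.W.6. No paired analysis was possible because each variant has 1 library. The depth is unknown, so it cannot be said how a deeper library would move the edges.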
